A study of Arabidopsis thaliana with 24 samples.

Results

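The probe sets described here were raised at least 2-fold by auxin in wild-type Arabidopsis seedlings and showed less than 0.25 of that log2 change when ARF7 was mutated, alone or together with ARF19. They number 108 of 22746 non-control probe sets on the array. Response here means the mean log2 signal with the auxin indole-3-acetic acid (IAA) minus the mean without it. A member had a Col response of at least 1, a lowest Col IAA array above the highest Col control array, and responses in nph4-1 and in the double mutant below 0.25 of that of Col. Genes whose listed names place them in the IAA, GH3, LBD, HAT, XTH, EXP, GH9 and UGT families or among the peroxidases, and PUCHI and WAG2, were left out, which removed 3 probe sets that met the numbers, those of LBD29, GH3.1 and WAG2. The 60 members with no listed gene could not be screened in this way, nor could genes listed under a locus code alone, so the members may still hold genes of these families. The members were thus chosen by the responses of Col, nph4-1 and the double mutant, which are given below as descriptions with no test. The arf19-1 arrays played no part in the choice, and the tests below compare them with and without IAA. The standard errors (SE) and p-values of these tests also use the spread of the other arrays, including those that chose the members. The tests are therefore not fully independent of the choice, and a fit of the arf19-1 arrays alone is given further below.

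Transcript levels came from total RNA of whole seedlings, hybridised to arrays of oligonucleotide probes. The genotypes were nph4-1, a mutant of ARF7, arf19-1, a mutant of ARF19, the nph4-1 arf19-1 double mutant, and wild-type Columbia (Col), and all mutants are in the Columbia background. Each genotype was treated for 2 h at 24 °C with 5 µM IAA or with the ethanol solvent as control, after 7 days in shaken liquid medium with 1.5% sucrose and a cycle of 16 h light and 8 h dark. Each of the 8 groups had 3 arrays, numbered 1 to 3, and n = 3 per group holds for every value below. Whether the 3 came from separate cultures is not labelled, and the p-values below measure the spread between these arrays, which may be technical.

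Auxin binds F-box receptors that mark Aux/IAA repressor proteins for breakdown, which frees auxin response factors (ARFs) to activate their target genes. ARF7, also known as NPH4, and ARF19 are closely related activating ARFs, known for their roles in lateral root formation and, for ARF7, in bending towards light. The products of genes switched on in this way include enzymes that remodel the cell wall, secreted peptides, receptor kinases and enzymes of secondary metabolism.

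Array medians lay between 6.645 and 6.758 in log2 signal, and 35.6% to 36.7% of the values of an array sat at the floor of 5.64 set in the deposited table. The arrays nph4-1 IAA 1 and Col control 3 differed most from the others of their groups, with limma array weights of 0.144 and 0.185. Chosen without Col control 3 the members would number 106, of which 98 are shared with the 108, and without nph4-1 IAA 1 they would number 107, of which 95 are shared. Of 14 shoot and root markers listed, 1 had a named probe set, the root hair expansin EXPA7, which read 6.43 to 8.08 over all arrays. The other markers, and ARF7 and ARF19 themselves, were not analysed here under their names. Their probe sets may be among those with no listed gene, which include 60 members.

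Of the 108 members, 47 were paired with 1 gene, 1 with several and 60 with none in the platform annotation, and no member's probe set had the suffix of a design shared between transcripts (_s_at or _x_at). All passed the filter on low values, which left out probe sets at the floor on every array. Col responses ran from 1 to 2.98 with a median of 1.37, and the rule's conditions on Col alone held for 1.85% of the 15757 probe sets tested. The nph4-1 responses ran from -0.5 to 0.69 (median 0.08) and those of the double mutant from -0.36 to 0.49 (median 0.00). On 107 of the 108 members every nph4-1 and double-mutant IAA array lay below every Col IAA array. This separation follows in part from the rule, and no share over all tested probe sets was computed for it. All 6 nph4-1 arrays were at the floor for 22 members, all 6 double-mutant arrays for 27, and all 12 arrays for 19. A response of 0 between arrays at the floor may hide a rise below it. For these members the condition on the mutant was thus met without a measured signal there.

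The median log2 signal of the members was 6.2, 6.07 and 6.05 on the double-mutant IAA arrays, against 6.07, 5.95 and 5.92 on the double-mutant control arrays. It was 6.17, 6.36 and 6.5 with IAA in nph4-1, against 6.07, 6.11 and 6.15 without. In arf19-1 it was 7.77, 7.74 and 7.85 with IAA and 6.24, 6.31 and 6.18 without. In Col it was 7.95, 7.98 and 7.99 with IAA and 6.33, 6.29 and 6.4 without. The arf19-1 IAA arrays thus sat close to those of Col and apart from all arrays of nph4-1 and the double mutant. In whole seedlings, a lower signal from fewer cells of a type cannot be told apart from less RNA per cell.

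**Figure D1:**
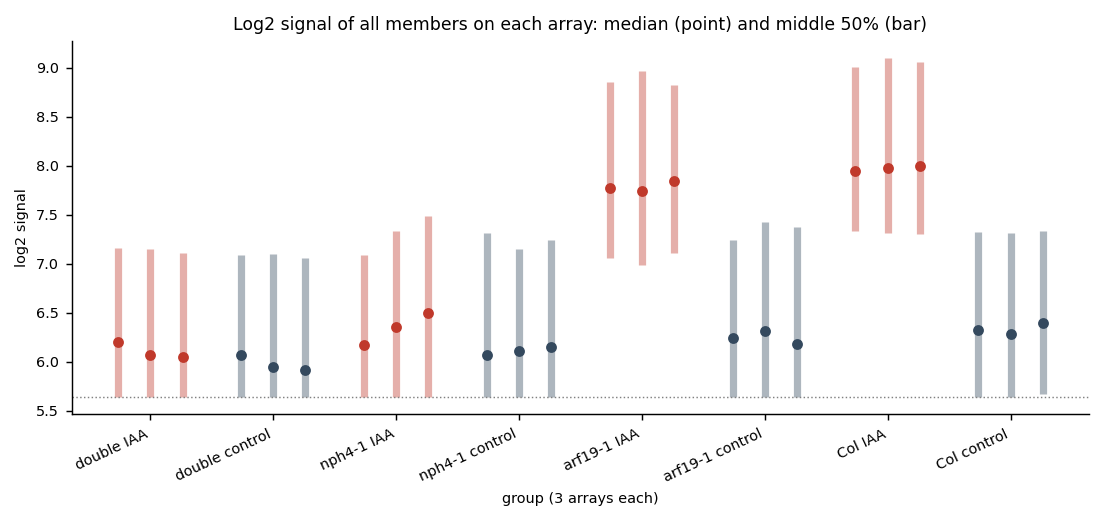
Log2 signal of the 108 members on each of the 24 arrays (y axis) by group (x axis, with IAA in red and control in dark blue, double standing for nph4-1 arf19-1). Points are medians over members, bars the middle 50% of members and the dotted line the floor; the medians of the arf19-1 IAA arrays (7.74 to 7.85) and Col IAA arrays (7.95 to 7.99) stand above all others, which lie at 6.5 or below.

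IAA raised most of these genes in arf19-1. In limma, 99 of the 108 members were higher with IAA in arf19-1 at an adjusted p under 0.05 and none was lower, where 4.89% of all tested probe sets were higher and 5.22% lower. All 3 arf19-1 IAA arrays lay above all 3 arf19-1 control arrays for 103 members, which holds for 12.7% of all tested probe sets. Without Col control 3 in the choice and the fit 98 of 106 members were called, and without nph4-1 IAA 1 99 of 107. The median arf19-1 response was 1.24, against -0.01 over all tested probe sets, and 68 members reached a response of at least 1, as did 1.58% of all tested probe sets. For 96 members every arf19-1 IAA array lay above every IAA array of nph4-1 and the double mutant. The rule partly sets this count, and its share over all tested probe sets was not computed.

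A comparison group was the other 183 probe sets that met the conditions on Col. They include those of LBD29, GH3.1 and WAG2, which met the numbers of the rule and were left out by name alone. Among the members 91.7% were higher with IAA in arf19-1, and among the others 92.9% (170 of 183), a difference that was not tested. The median response of the members was 1.24 in arf19-1 and 0.08 in nph4-1, and that of the others 1.38 in arf19-1 and 0.86 in nph4-1. The arf19-1 response as a percentage of the Col response, both in log2, had a median of 85.9% over the members (middle 50% from 66.8% to 99.8%) and 93.4% over the others (71.1% to 110%). It lay between 75% and 125% for 72 members, above 100% for 27 and under 25% for 6. For the 21 members at the floor on all Col control arrays it is a ratio with a lower bound, and over the other 87 its median was 88.7%. A choice for a high Col response can lower this percentage by itself. The difference between the arf19-1 and Col responses was fitted for each probe set but is not reported for the members. It was not tested over the members as a set. Across the 108 members the arf19-1 and Col responses correlated with r = 0.78 (Spearman 0.74), where all points come from the same 12 arrays.

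**Figure D2:**
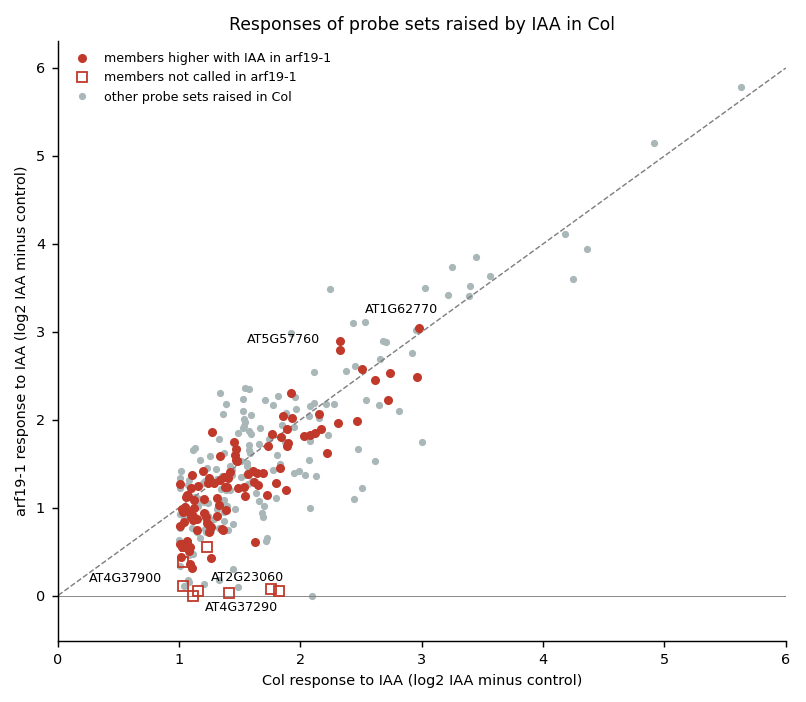
The arf19-1 response (y axis) against the Col response (x axis), both log2 IAA minus control, for the probe sets that met the conditions on Col. Filled red circles are the 99 members called higher in arf19-1, open squares the 9 members not called and grey points the 183 others; the dashed line marks equal responses, and AT2G23060, AT4G37290 and AT4G37900 lie near 0 in arf19-1.

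Among the named members 3 genes act on pectin, the gel-like polysaccharide of the cell wall. AT1G62770, which had the largest Col response of all members, encodes a protein of the pectin methylesterase inhibitor family. Its log2 signal was 9.69, 9.62 and 9.98 on the arf19-1 IAA arrays, against 6.69, 6.77 and 6.7 on the arf19-1 control arrays. In nph4-1 it was 6.66, 6.56 and 6.86 with IAA and 6.09, 5.91 and 6.02 without, and in Col 9.98, 9.73 and 9.88 with IAA and 6.94, 6.74 and 6.96 without. The treated and control arrays did not overlap in any of these genotypes, and no nph4-1 IAA array exceeded the highest untreated Col array. The arf19-1 rise was 8.26-fold (log2 3.05, SE 0.11, limma adjusted p = 3.2e-14), beside responses of 0.49 in the double mutant, 0.69 in nph4-1 and 2.98 in Col.

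AT1G67750, of the pectate lyase family, read 9.97, 9.88 and 10.33 with IAA in arf19-1, against 8.25, 8.4 and 8.44 without. In nph4-1 it read 6.94, 7.2 and 7.3 with IAA and 7.45, 7.53 and 7.74 without, so that all treated arrays lay below all control arrays. The double mutant showed the same order, with 7.32, 7.3 and 7.39 against 7.7, 7.62 and 7.72. The arf19-1 response was 1.70 (SE 0.15, limma adjusted p = 3.4e-08), and the others were -0.35 in the double mutant, -0.43 in nph4-1 and 1.73 in Col. AT2G43870, a gene of the polygalacturonase family, was at the floor on all arf19-1 control arrays and on all arrays of nph4-1 and the double mutant. It rose at least 2.67-fold in arf19-1 (SE 0.13 in log2), and its responses of 1.42 there and 1.20 in Col are both lower bounds, since the Col control arrays were at the floor too. All 3 pectin genes were thus called in arf19-1, as were 91.7% of all members.

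Secreted peptides were represented by 3 genes. CLE44 encodes a precursor of the peptide TDIF, which keeps vascular stem cells dividing. It read 7.39, 7.21 and 7.6 with IAA in arf19-1, against 6.02, 6.06 and 5.98 without, a rise of 2.6-fold (log2 1.38, SE 0.15, limma adjusted p = 5.4e-07). Its responses were 0.23 in the double mutant, 0.28 in nph4-1 and 1.57 in Col.

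AT4G37290 and AT4G37295 encode small secreted peptides of the PIP and PIP-like family and are direct neighbours among the protein-coding genes of the RefSeq table. They were the only pair of named members within 10 protein-coding genes of each other. AT4G37295 read 7.89, 7.71 and 7.63 with IAA in arf19-1, against 5.89, 5.74 and 5.64 without, a response of 1.99 (SE 0.13, limma adjusted p = 7.5e-10). With IAA AT4G37290 read 5.79, 5.64 and 5.67 in arf19-1 and 7.34, 7.06 and 5.99 in Col, and it was at the floor on all control arrays of both. Its arf19-1 response of 0.06 (SE 0.19) did not pass (limma adjusted p = 0.99), while its Col response was 1.16. Col IAA 3 was low for this gene, close to the highest arf19-1 array. In nph4-1 AT4G37295 had a response of 0.60, just inside the rule at 24.1% of Col, and AT4G37290 was at the floor on all nph4-1 arrays.

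**Figure D3:**
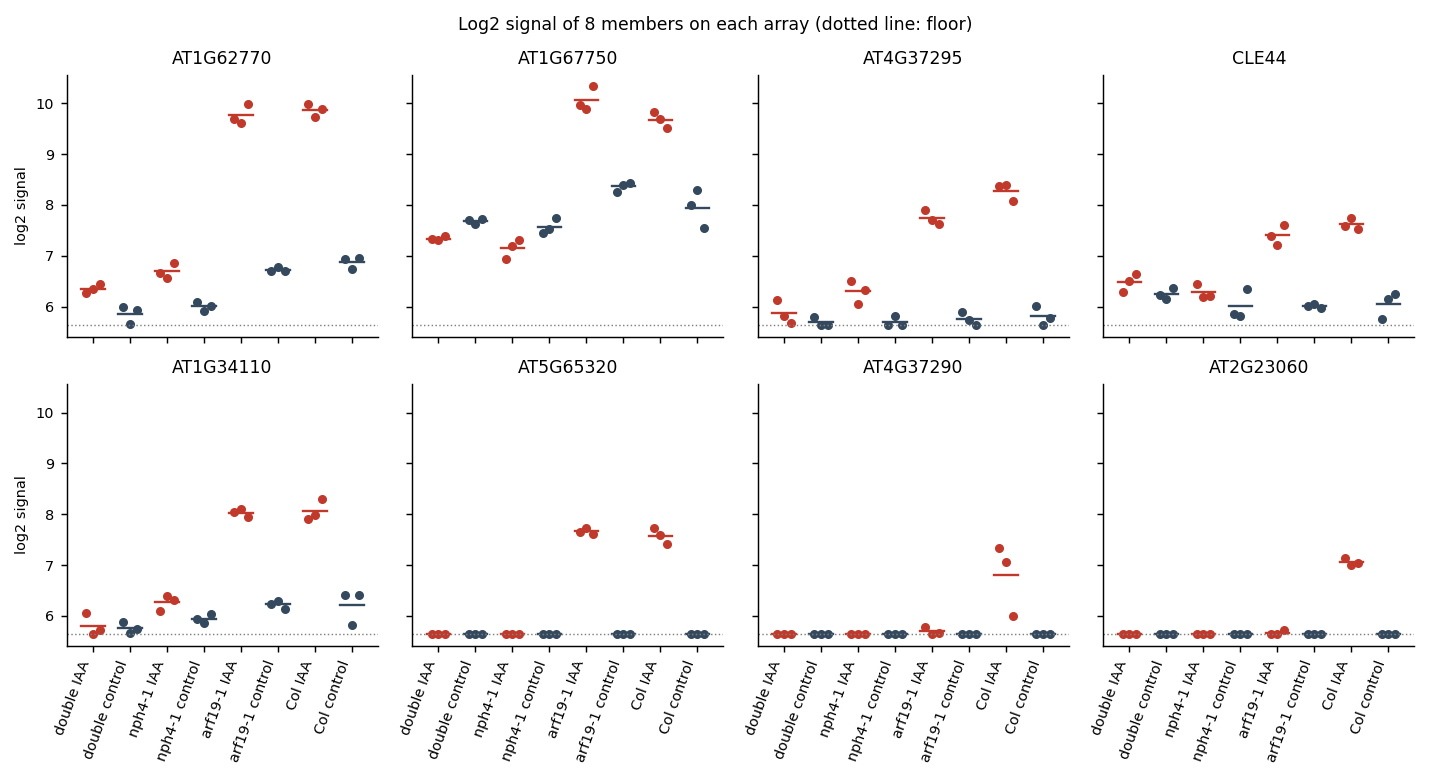
Log2 signal (y axis) of 8 members on each array, by group (x axis), with IAA in red, control in dark blue, bars at group means and the dotted line at the floor. In the panels of AT1G62770, AT1G67750, AT4G37295, CLE44, AT1G34110 and AT5G65320 the arf19-1 IAA arrays stand clear of their controls, whereas AT4G37290 and AT2G23060 stay at 5.79 or below in arf19-1.

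Of both HOOKLESS1-like genes among the members, 1 was called in arf19-1. HOOKLESS1 is an N-acetyltransferase-like protein needed for the apical hook of dark-grown seedlings, and AT5G67430 and AT2G23060 are its relatives. AT5G67430 read 7.32, 7.02 and 7.32 with IAA in arf19-1, against 5.94, 5.7 and 5.82 without. The rise was 2.63-fold (log2 1.40, SE 0.09, limma adjusted p = 3.7e-10), at 84.9% of the Col response of 1.65. AT2G23060 read 5.64, 5.64 and 5.73 with IAA in arf19-1 and 7.13, 7.01 and 7.04 with IAA in Col. Every control array of arf19-1 and Col was at the floor for AT2G23060. Its arf19-1 response of 0.03 (SE 0.05) did not pass in limma (adjusted p = 0.91), and the Col response was 1.41. Both genes were at the floor on all arrays of nph4-1 and the double mutant.

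Of the 7 members with a kinase, phosphatase or GTPase role, all were called higher in arf19-1, as were 91.7% of all members. AT1G34110 encodes a leucine-rich repeat receptor kinase of the clade that perceives root meristem growth factor peptides. It read 8.04, 8.1 and 7.94 with IAA in arf19-1, against 6.24, 6.3 and 6.14 without, a 3.49-fold rise (log2 1.80, SE 0.15, limma adjusted p = 9.8e-09) beside a Col response of 1.84. Its responses were 0.04 in the double mutant and 0.33 in nph4-1. AT1G75640, another leucine-rich repeat receptor kinase, rose 2.44-fold in arf19-1 (log2 1.28, SE 0.12), with a Col response of 1.24. The protein kinase gene AT1G77280 rose 3.57-fold in arf19-1 (log2 1.84, SE 0.11), with 1.76 in Col.

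AT3G61160, a GSK3/shaggy-like kinase gene, had the highest arf19-1 response as a percentage of Col among the named members, 127%. It read 8.07, 7.73 and 8.05 with IAA in arf19-1, against 6.71, 6.59 and 6.73 without (log2 1.27, SE 0.11), and its Col response of 1.00 was the lowest of the named members. AT3G63240, of the inositol polyphosphate 5-phosphatase family, rose by 1.15 (SE 0.14), with 1.72 in Col, and the type 2C protein phosphatase gene AT1G34750 by 0.84 (SE 0.13), with 1.04 in Col. SGP2, a small GTP-binding protein gene, had the smallest called rise, 0.32 (SE 0.09, limma adjusted p = 0.02), with 1.11 in Col. The call of SGP2 ended without arf19-1 control 2 or 3 or any of the 3 arf19-1 IAA arrays (limma adjusted p from 0.052 to 0.09).

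Among the acyltransferases of the BAHD (HXXXD) family, which modify secondary metabolites, 3 members were called in arf19-1, as were 91.7% of all members. AT2G39980 read 9.55, 9.55 and 9.28 with IAA in arf19-1, against 7.08, 7.09 and 6.63 without, a 5.78-fold rise (log2 2.53, SE 0.20, limma adjusted p = 6.8e-09). Its responses were 0.25 in the double mutant, 0.44 in nph4-1 and 2.74 in Col. AT5G01210, already at 9.44 to 9.66 on the arf19-1 control arrays, rose 2.88-fold (log2 1.53, SE 0.19), with 1.48 in Col. AT1G28680, which encodes an enzyme of coumarin synthesis, rose 1.51-fold (log2 0.59, SE 0.14), with 1.01 in Col. Without arf19-1 control 1 the call of AT1G28680 ended (log2 0.48, limma adjusted p = 0.058).

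Genes with a role in transcription were AT5G65320, of the bHLH family, and AT2G22880, which encodes a VQ-motif protein. AT5G65320 read 7.65, 7.72 and 7.62 with IAA in arf19-1 and 7.73, 7.59 and 7.41 with IAA in Col, and it was at the floor on all control arrays of both genotypes. On the nph4-1 arrays it never left the floor. Its arf19-1 rise was at least 4.05-fold (log2 2.02, SE 0.07, limma adjusted p = 4.5e-15). AT2G22880 read 6.2, 5.87 and 6.01 with IAA in arf19-1 and 7.02, 7.15 and 5.87 in Col, with every control array at the floor. Its arf19-1 response of 0.38 (SE 0.19) did not pass (limma adjusted p = 0.29) although the arrays did not overlap. Without Col IAA 3, the low array, it passed (limma adjusted p = 0.00019), and in a fit of the arf19-1 arrays alone it also passed (0.022).

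Further members with a known type of product gave a range of arf19-1 responses. The GDSL lipase gene AT5G55050 rose by 0.81 (SE 0.15) and AT1G02660, of the lipase class 3 type, by at least 0.51 (SE 0.09), beside Col responses of 1.24 and 1.08. RTE1, a regulator of the ethylene receptor ETR1, rose 1.86-fold (log2 0.90, SE 0.09), with 1.10 in Col. ATG8G, a ubiquitin-like protein of autophagy, rose 1.47-fold (log2 0.56, SE 0.11), with 1.02 in Col. AT3G25290, which belongs to a family of auxin-responsive cytochrome b561 proteins, rose 1.97-fold (log2 0.98, SE 0.10), with 1.02 in Col. AT2G19970, a relative of the secreted PR-1 proteins, rose 2.36-fold (log2 1.24, SE 0.12), with 1.40 in Col. SETH6, of the NPH3 family of BTB proteins, rose at least 2.88-fold (log2 1.53, SE 0.14), with 1.48 in Col. AT1G65920, an RCC1-domain protein gene, rose at least 2.43-fold (log2 1.28, SE 0.08), with 1.29 in Col.

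Several members encode proteins with no role given here. AT5G57760 rose 6.91-fold in arf19-1 (log2 2.79, SE 0.26), 120% of its Col response of 2.33. Its mean was lower in arf19-1 than in Col both with IAA (9.0 against 9.44) and without (6.21 against 7.11). AT3G50340 rose 3.71-fold in arf19-1 (log2 1.89, SE 0.21), and had -0.24 in the double mutant, -0.27 in nph4-1 and 2.17 in Col. Both members of the plant DUF241 family were called, AT4G35720 at 2.31 (SE 0.29) and AT4G35200 at 0.97 or more (SE 0.09), with 1.93 and 1.38 in Col. AT5G50335 read 7.53, 7.64 and 7.89 with IAA in arf19-1 and was at the floor on the arf19-1 control arrays, a rise of at least 4.12-fold (SE 0.14 in log2). The rises of AT3G03170 (1.28, SE 0.12), AT3G61930 (1.26, SE 0.10), AT5G51380 (1.14, SE 0.09), AT2G28690 (at least 0.75, SE 0.07) and AT5G48175 (at least 0.91, SE 0.14) stood beside Col responses of 1.80, 1.65, 1.55, 1.36 and 1.31. AT5G49170 rose by 1.37 (SE 0.12), with 1.10 in Col. Its mean was also lower in arf19-1 than in Col with IAA (7.08 against 7.39) and without (5.71 against 6.28). The other 6 named members called were AT1G74440 (1.25, SE 0.10), AT3G09760 (1.23, SE 0.16), AT5G14690 (0.75, SE 0.14), AT1G10140 (0.55, SE 0.15) and, from the floor, AT1G49450 (0.91, SE 0.11) and P1R3 (0.72, SE 0.12), with Col responses of 1.09 to 1.24. The call of AT1G10140 ended without arf19-1 control 1, arf19-1 IAA 1 or arf19-1 IAA 2 (limma adjusted p from 0.063 to 0.1). The adjusted p of the 42 named members called in arf19-1 ran from 4.5e-15 for AT5G65320 to 0.02 for SGP2. Arrays at the floor show no spread, so the p-values of members with many of them, AT5G65320 included, may be too small. In a fit of the arf19-1 arrays alone AT5G65320 had a limma adjusted p of 1.8e-06.

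**Figure D4:**
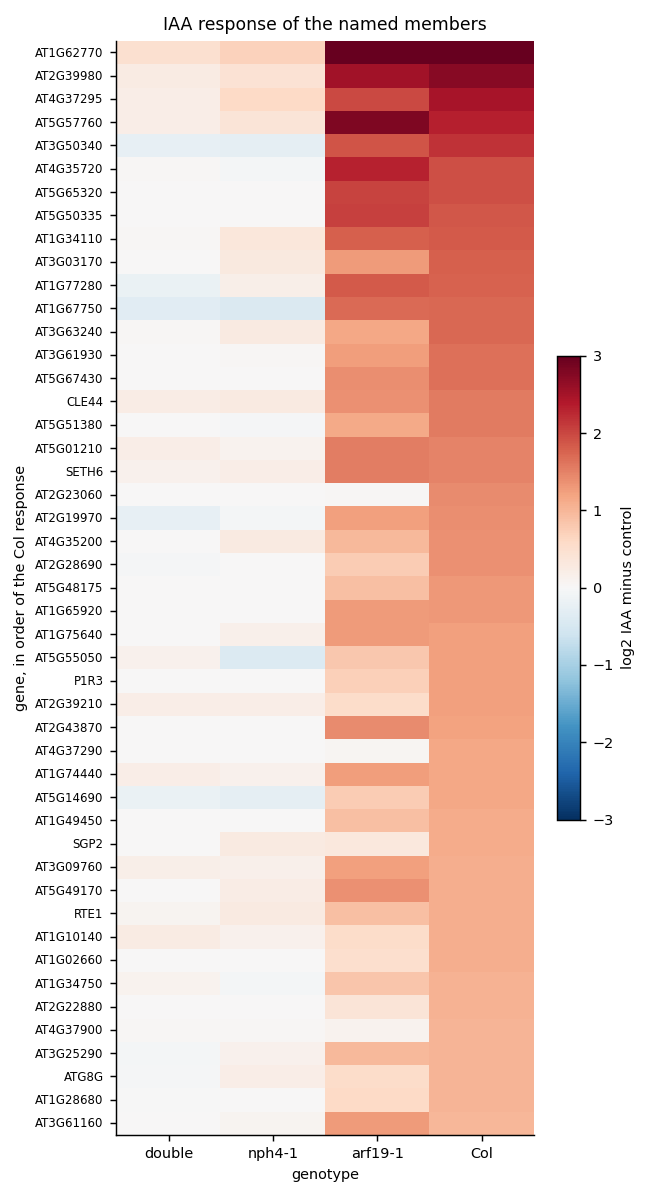
IAA response (colour, log2 IAA minus control) of the 47 named members (rows, in order of the Col response) in the double mutant, nph4-1, arf19-1 and Col (columns). The double mutant and nph4-1 columns are pale throughout by the rule, with no response above 0.69; the arf19-1 column ranges from 0.03 for AT2G23060 to 3.05 for AT1G62770.

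In arf19-1, 5 of the 47 named members did not pass. Besides AT2G23060, AT4G37290 and AT2G22880, these were AT4G37900 and AT2G39210. AT4G37900, a gene of the glycine-rich domain protein type, read 5.73, 5.78 and 5.75 with IAA in arf19-1 and 6.39, 6.74 and 6.89 with IAA in Col, and 5.64 on every control array of both. Its arf19-1 response of 0.11 (SE 0.08) did not pass (limma adjusted p = 0.58), and its Col response of 1.03 is a lower bound. AT2G39210, a nodulin-like membrane transporter of the major facilitator type, read 9.12, 9.23 and 9.06 with IAA in arf19-1, against 8.6, 8.46 and 8.68 without. That response of 0.56 (SE 0.19) missed the threshold (limma adjusted p = 0.074) while the arrays did not overlap. It passed without Col control 3 (limma adjusted p = 0.029), nph4-1 IAA 1 (0.03) or nph4-1 IAA 3 (0.032), and in a fit of the arf19-1 arrays alone (0.0032). AT2G23060, AT4G37290 and AT4G37900 did not pass under any alternative that tested them, with adjusted p of at least 0.075.

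Of the 61 members without a gene name of their own, 57 were called higher in arf19-1 and 4 were not. The probe set 256010_at was at the floor on all 6 arrays of arf19-1 and all 6 of the double mutant. It read 7.02, 7.52 and 7.8 with IAA in nph4-1, against 7.11, 7.13 and 7.37 without, and 8.27, 7.98 and 8.29 with IAA in Col, against 7.08, 6.95 and 7.15 without. It was the only member at the floor on all arf19-1 arrays. Its gene is not listed, and whether it is ARF19 itself was not checked. The probe set 256010_at met the rule's condition on the double mutant with a response of 0 between arrays at the floor. Neither this nor its arf19-1 value of 0 can be read as a lost response. Without a signal in both genotypes that carry arf19-1, whether its response needs ARF7 rests on nph4-1 alone. The probe set 254323_at read 5.71, 5.64 and 5.75 with IAA in arf19-1 and 7.57, 7.73 and 7.11 in Col, with all control arrays of both at the floor. Its Col response was 1.82 and its arf19-1 response 0.06.

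Some members had no signal above the floor in untreated Col, so that their Col responses are lower bounds, as are most of their arf19-1 responses. Of 21 members at the floor on all Col control arrays, 15 were called higher in arf19-1, with a median, mostly over bounds, of 0.75 in arf19-1 and 1.36 in Col. Of the other 87 members 84 were called, with a median of 1.28 in arf19-1 and 1.38 in Col. The medians of the 21 and the 87 are therefore not comparable, the split uses Col control arrays that chose the members, and 5 of the 6 members under 25% of the Col response belong to the 21.

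Without IAA, some members were already lower and some higher in the mutants than in Col. This is given as a description because the rule used the control arrays of the double mutant, nph4-1 and Col. All double-mutant control arrays lay below all Col control arrays for 26 of 108 members (11.6% of all tested probe sets), and above them for 7 (14.7%). For nph4-1 these counts were 18 (7.63%) and 6 (11.1%), and for arf19-1 they were 7 (4.95%) and 12 (7.09%). Median differences from Col without IAA were -0.03 in the double mutant, -0.01 in nph4-1 and 0.00 in arf19-1.

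AT5G57760 showed the largest such difference among the named members. Without IAA it read 5.64 on all 3 double-mutant arrays, 5.64, 5.69 and 5.64 in nph4-1, 6.2, 6.78 and 5.64 in arf19-1, and 7.26, 6.51 and 7.55 in Col. With IAA it read 6.04, 6.15 and 5.95 in nph4-1, below every untreated Col array. AT5G01210 was lower without IAA by -1.16 in the double mutant, -0.75 in nph4-1 and -0.48 in arf19-1 than in Col, and AT1G62770 by -1.02 in the double mutant and -0.87 in nph4-1. AT3G25290 went the other way, with 8.69, 8.8 and 8.73 on the double-mutant control arrays and 8.11, 7.86 and 8.02 on those of Col, a difference of 0.75. Its double-mutant IAA arrays, at 8.68, 8.59 and 8.78, did not exceed the highest of their controls.

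At the border of the rule, AT4G37295 was the named member with the highest share, 24.1% of Col. Just outside lay IAGLU, an IAA glucosyltransferase gene, at 25.1%, with responses of 0.521 in the double mutant, 0.438 in nph4-1 and 2.076 in Col. On the Col response AT3G61160 lay just inside at 1.004 and AT2G39420 just outside at 0.997.

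Other genes of the auxin pathway were covered only in part. Of 16 genes of perception (receptors and ARFs) none had a named probe set, and of 12 transport genes 1 had, that of the carrier-directing kinase WAG2. WAG2 rose by 1.79 (SE 0.20) in arf19-1, with 1.33 in Col. Of 11 genes of auxin metabolism 6 were tested, of which 3 rose and 1 fell in arf19-1, and the same counts held in Col, where 6.33% of all tested probe sets were called higher and 6.52% lower. The amide synthetase genes GH3.3 (5.78, SE 0.18), WES1 (4.12, SE 0.37) and, from the floor, GH3.1 (limma adjusted p = 1.2e-08) rose in arf19-1, and YUC6, of auxin synthesis, fell by 0.85 (SE 0.17). DAO1, which encodes an IAA oxidase, had values of 0.03 in arf19-1 and 0.03 in Col (SE 0.17 each). For none of these genes did the difference in response between arf19-1 and Col pass in limma (smallest adjusted p = 0.74, for GH3.1).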

How the data were processed

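The deposited table holds a log2 signal for each array and probe set, with a lowest value of 5.64 (50 in linear units). How the authors summarised and scaled the arrays is not given in the sources used here. The values were used as deposited. Of 22810 probe sets, 64 controls and 6989 at the floor on all 24 arrays were left out, and 15757 were tested. Gene names were taken from the platform's annotation (13513 probe sets with 1 gene, 503 with several, 8794 not listed), of which 13436 were found in the RefSeq table (TAIR10.1), used for names and neighbours only. Roles are background knowledge.

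In R 4.3.3, limma 3.58.1 fitted the means of the 8 groups to the 24 arrays (lmFit, eBayes with trend and robust, 16 residual degrees of freedom). Tests were two-sided, with Benjamini-Hochberg adjustment over the 15757 at 0.05. Where all control arrays were at the floor, a fold or rise is a lower bound. The SE and p-values of probe sets with many arrays at the floor may be too small, since such arrays show no spread. The fit was tested on simulated data (15757 probe sets, IAA response in arf19-1). The changed probe sets were drawn only from those with a mean log2 signal above 6.5. The fit found 95 of 100 changed 2-fold and 60 of 100 changed 1.5-fold, and 2.5% of all its calls were false. No recovery was measured for probe sets with low signal or at the floor, so these rates may not hold for such members. Per the labels, Col control 2 and 3 carry tables that replace earlier ones. At most 0.02% of values above the floor were the same on any pair of arrays.

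The members and lists were chosen with earlier results of these data known. The rule for named genes took the 25 named members with the largest Col response, the 3 lowest and 3 highest percentages of Col, and the named members not called. Other members, and the 2 unlisted probe sets with the lowest percentages of Col, were named after their values were seen. The number of arrays limits the precision. Promoter motifs, listed in the design, were not analysed here. The alternatives changed normalization, filter, model, arrays, threshold and the rule for members.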

Additional observations from a re-analysis of the deposited data

How the results depend on the processing

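The count of 99 members higher with IAA in arf19-1 was 56 when probe sets with a mean log2 signal under 6.5 were left out, since fewer members were then tested. It was 94 at an adjusted p under 0.01, and 68 at an adjusted p under 0.05 with a change of at least 2-fold. It was 99 with quantile normalization, with each array at the same median, with plain eBayes, with adjustment over all non-control probe sets and with a replicate block, and 102 in a fit of the arf19-1 arrays alone and with array quality weights. Leaving out each of the 24 arrays from the fit, with the 108 members kept, gave 95 to 100. No pairing by replicate number was established, since deviations of same-numbered arf19-1 arrays correlated at 0.0048, 0.29 and 0.15 and the labels name no shared source.

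With the nph4-1 and double-mutant responses allowed up to 0.5 of Col, 181 probe sets met the rule and 166 were called. Below 0.1 of Col they were 59 and 52, and with a Col response of at least 1.5 they were 40 and 38, with a median arf19-1 response of 1.81 in place of 1.24. With only probe sets of 1 gene they were 47 and 42. Leaving out 1 array and choosing the members again, their number ran from 101 to 127. Leaving out 1 arf19-1 array, which kept the same 108 members, the median ran from 1.16 to 1.28. For members chosen and fitted without Col control 3, 98 were called, and 99 without nph4-1 IAA 1, with a median of 1.25 in both, which was added after seeing the data. Of the 42 named members called, 39 were called in every omission of 1 array. Values at the floor bound small responses.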
